A study of Drosophila melanogaster with 8 samples.

Results

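Small-subunit ribosomal protein genes encode the proteins of the part of the cytosolic ribosome that binds an mRNA and reads its codons. The members were the genes whose symbol, in the deposited table or in the current annotation, is RpS followed by a number and at most 1 letter, together with sta (ribosomal protein SA), sop (listed as RpS2) and oho23B (listed as RpS21). This rule used names only and gave 36 of the 14012 genes, of which 33 passed the filter on low values and 3, RpS5b, RpS10a and RpS28a, did not.

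Polyadenylated RNA had been sequenced from exosomes, small vesicles released by cells, and from whole cells of S2, an established Drosophila melanogaster line of embryonic origin. There were 4 exosome and 4 cell libraries, each numbered 1 to 4, and the labels give no genotype, treatment or time that would set libraries of a group apart. The design text speaks of separate experiments, but the labels name no separate cultures, so p-values here speak only for the variation among these 8 libraries, part of which may be technical. The labels do not describe how the exosomes were isolated, and 1 cell line stands for each group.

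The small subunit joins the large subunit at a start codon, and each ribosome needs its proteins in equal numbers, so their mRNAs are made together and are among the most abundant in growing cells. Many of these genes cause the Minute phenotype in flies when 1 copy is lost, with slow growth and short bristles. Several have a second gene copy in Drosophila, and some of those copies are known mainly from the germline.

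Values were FPKM, fragments scaled to the length of the transcript and to the number mapped in the library, and were compared per length between genes. Summed FPKM differed 12.5-fold between libraries, from 91304 in exosome library 3 to 1140880.0 in cell library 2, so levels are given within each library. Where low values showed the worth of 1 fragment, the depth was about 99100 fragments in exosome library 2, 1940000 and 2030000 in exosome libraries 3 and 4, and 1970000 to 6080000 in cell libraries 2 to 4. No such step was found in exosome library 1 or cell library 1, whose depth stayed unknown. Of 9 markers of plasmatocytes, the blood cells that S2 resembles, 6 passed the filter, and the 9 had a summed FPKM of 20.3 to 163 in the exosome and 13.9 to 2152 in the cell libraries. The plasmatocyte marker Hml was at 0 in exosome libraries 2 to 4 and at most 1.04 in cell libraries 2 to 4. In the libraries numbered 1 it had 5.35 (exosome) and 81.8 FPKM (cell). The markers crq, vkg, Col4a1 and Pxn were above 0 in every library, and srp and eater in all but exosome library 1. NimC1 and Ppn, like Hml, were at 0 in some exosome libraries. Crystal cell, follicle cell and neuron markers had a summed FPKM of at most 5.07. Muscle markers reached 18.6 in cell library 2, and of 3 lamellocyte markers only the integrin gene mys was above 1.

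Exosome library 1 listed 21 of the 36 members at 0, and these were the members on particular chromosome arms. All 8 members on X, all 12 on 3R and the 1 on chromosome 4 were at 0 there, while all 5 on 2L, all 6 on 2R and all 4 on 3L were above 0, with an FPKM of 8468 or more. Among the 21, RpS28a was also at 0 in the other 7 libraries and RpS10a in the other 3 exosome libraries. Arms were taken from the Release 6 annotation. The zeros were not particular to ribosomal genes, since all 2270 tested genes on X, 3R, 4 and the mitochondrial genome were at 0 in that library, against 130 of 3414, or 3.81%, on 2L, 2R and 3L. In the other libraries 0.132% to 4.80% of the tested genes on X, 3R, 4 and the mitochondrial genome were at 0, except exosome library 2 with 45.5%, where 51.0% of those on 2L, 2R and 3L were also at 0. The cause of the zeros was not tested.

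**Figure D1:**
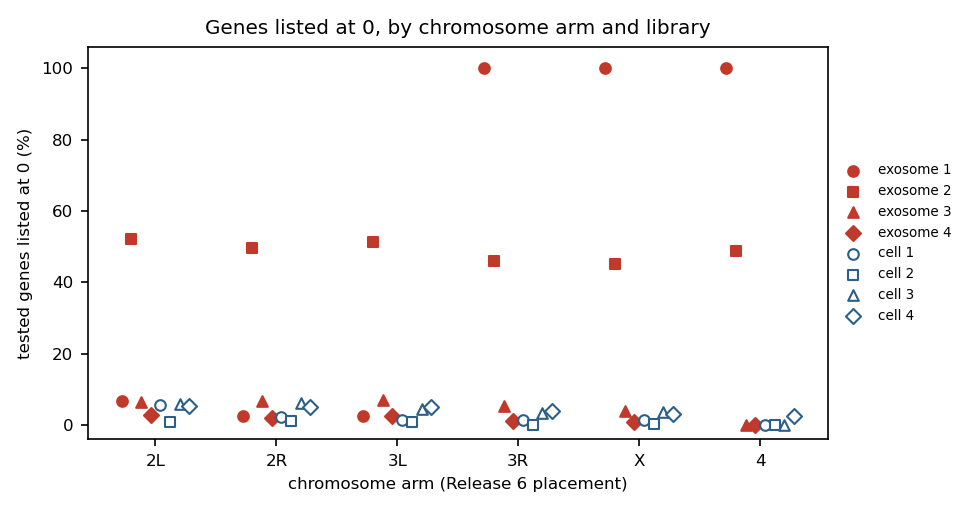
Percentage of tested genes listed at 0 (y axis) on each chromosome arm (x axis), 1 point per library, exosome libraries filled and cell libraries open. Exosome library 1 stands at 100% on 3R, X and 4 and at 2.37% to 6.71% on 2L, 2R and 3L, and exosome library 2 lies between 45.2% and 52.0% on every arm drawn.

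To keep exosome library 1 in use, levels are given below in ppm (parts per 1000000) of the FPKM summed over the genes of 2L, 2R and 3L, with no value for exosome library 1 where the gene lies on an absent arm. The plot of zeros by arm shows why the 15 members on 2L, 2R and 3L have 4 exosome values and the other 21 have 3. In bulk RNA fewer vesicles or cells and less RNA in each cannot be told apart.

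As a group, the small-subunit mRNAs of 2L, 2R and 3L made up 5.52% to 25.1% of the FPKM of their arms, and libraries of 1 group differed more than the group means did. The share of these 15 members was 25.1%, 15.1%, 5.52% and 13.9% in exosome libraries 1 to 4 and 14.4%, 16.2%, 8.01% and 13.0% in cell libraries 1 to 4. Exosome library 1 was the highest and exosome library 3 the lowest of all 8, and the groups overlapped, with means of 14.9% ± 8.03 in exosomes and 12.9% ± 3.52 in cells (SD, n = 4 each). Large-subunit mRNAs of the same arms took 35.6% ± 13.7 in exosomes and 33.9% ± 7.92 in cells. The ratio of small to large subunit on these arms was 0.536, 0.376, 0.354 and 0.351 in exosome libraries 1 to 4 and 0.498, 0.383, 0.314 and 0.336 in cell libraries 1 to 4, highest in both libraries numbered 1, and the groups overlapped.

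By rank, small-subunit mRNAs lay near the top of every library in which their arms were present. Among the 3414 tested genes of 2L, 2R and 3L, the median rank of the 15 members was 20, 22, 35 and 30 in exosome libraries 1 to 4 and 23, 26, 32 and 24 in cell libraries 1 to 4. The medians overlapped between groups, at 26.8 ± 6.99 in exosomes and 26.3 ± 4.03 in cells (SD, n = 4 each). Over all 5868 tested genes, 32, 32 and 32 of the 33 tested members were within the top 200 in exosome libraries 2 to 4 and 32, 32, 30 and 32 in cell libraries 1 to 4. The member outside was RpS19b, joined in cell library 3 by RpS2 and RpS14a. Exosome library 1 had 15 members in its top 200, which were its members on 2L, 2R and 3L.

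In limma's moderated test on log2(FPKM + 1), with Benjamini-Hochberg adjustment over all 5868 genes, 0 of the 33 tested members were called higher and 0 lower in exosomes, and 0 had an unadjusted p under 0.05. The share of all tested genes called was 0.0% in each direction, so the count of members stood at the background. By rank within the library, 0 of the 33 members had exosome and cell libraries that did not overlap, beside 3.78% of all tested genes higher and 1.53% lower in exosomes. By deposited FPKM the count was also 0, beside 0.0341% and 0.75%. Among the 15 members ranked within 2L, 2R and 3L it was 0, beside 2.96% higher and 1.85% lower. For the 18 tested members on X, 3R and 4, with exosome library 1 left out, it was 0, beside 4.01% and 2.03%.

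On the deposited scale the sign of the fitted difference followed the chromosome arm, with the zeros of exosome library 1 used or treated as missing. In both fits all 15 members on 2L, 2R and 3L had a log2 difference above 0, from 0.25 to 0.85 with a median of 0.48. Of all tested genes there, 22.4% were above 0 with the zeros used and 23.0% with them missing. All 18 tested members on X, 3R and 4 had a difference below 0 in both. On X, 3R, 4 and the mitochondrial genome, 98.1% and 87.9% of tested genes were also below 0, so the 18 members stood near that background. With the zeros used, the 18 members lay between -3.32 and -0.94, with a median of -2.96. The median over all tested genes was -0.65 on 2L, 2R and 3L and -1.57 on X, 3R, 4 and the mitochondrial genome. With the zeros of that library treated as missing, the members on X, 3R and 4 moved to between -0.87 and -0.08, with a median of -0.50. With limma, adjusted p lay between 0.708 and 0.970 in the first fit and between 0.993 and 0.995 in the second.

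A setting added after the data were seen also scaled every library to the same sum over 2L, 2R and 3L. In it the members' median log2 difference was 0.10 on 2L, 2R and 3L and -0.22 on X, 3R and 4. Small- and large-subunit mRNAs were a large part of that sum, with means of 14.9% and 35.6% in exosomes and 12.9% and 33.9% in cells. Scaling to it can therefore draw their differences towards 0 and narrow their intervals by construction. In the rescaled fit 12 of the 15 and 3 of the 18 members were above 0. Beside them stood 15.6% of tested genes on 2L, 2R and 3L and 24.5% on X, 3R, 4 and the mitochondrial genome. All 33 members had a 95% interval that included 0, with limma's adjusted p between 0.651 and 0.999. The median over all 5868 genes was -1.10 in this fit, against -0.77 on the deposited scale with the same arms missing and -1.01 with the zeros used. For the 32 members other than RpS19b, the standard errors lay between 1.85 and 2.14 in the first fit, between 1.71 and 1.92 with the zeros missing, and between 0.45 and 0.87 with the common scale as well. For these members the 95% intervals on the common scale reached from -1.91 at the lowest (RpS10b) to 1.98 at the highest (RpS12). This fit, which has no block, so left room for differences of that size. With the replicate number also fitted as a block, 0 of the 33 members were called, beside 0.0511% of all tested genes higher and 0.835% lower in exosomes. Standard errors were smaller with the block, at -0.33 ± 0.33 for RpS10b and 0.32 ± 0.32 for RpS12 (log2 difference ± SE). The labels do not say that the numbers mark pairs.

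**Figure D2:**
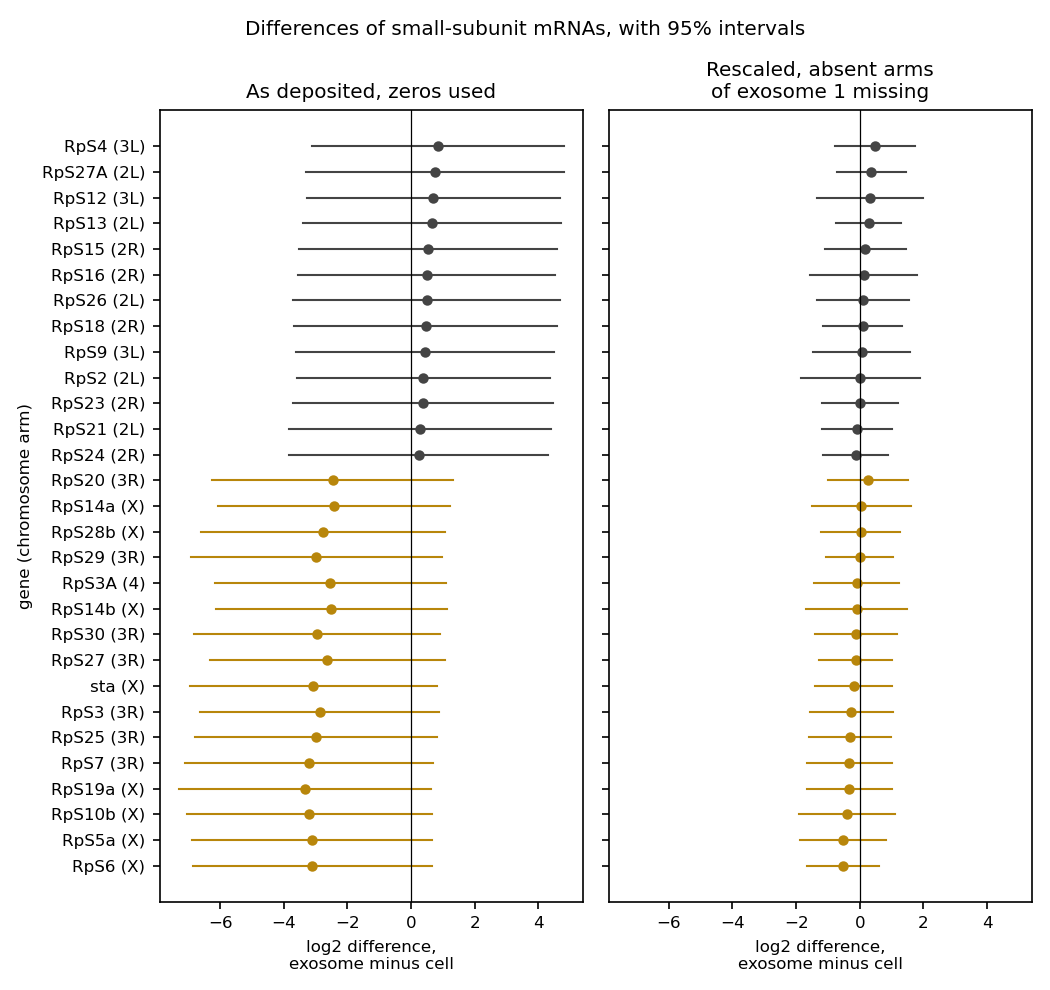
Log2 difference, exosome minus cell, with its 95% interval from limma (x axis) for 29 tested members (y axis, with chromosome arm), on deposited values at left and on rescaled values with absent arms missing at right. Members on 2L, 2R and 3L are dark and those on X, 3R and 4 are gold; the groups of genes lie apart at left, at 0.25 to 0.85 against -3.32 to -2.41, and every interval crosses 0 in both panels.

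Proteins that face the mRNA and the entry and exit of its channel included RpS2, RpS3 and RpS26. RpS3 sits at the mRNA entry channel and is also known for a role in DNA repair. It stood at 6197, 2689.9 and 6040.0 ppm in exosome libraries 2 to 4 and at 12032, 6083, 2628 and 4956 ppm in cell libraries 1 to 4. Cell library 1 was well above the other libraries, which overlapped, and the rescaled log2 difference was -0.26 ± 0.60 (SE), with limma's adjusted p = 0.859.

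RpS2, the product of string of pearls (sop), is also part of the entry channel. Its level was 19062, 5022, 1385 and 4909.5 ppm in exosome libraries 1 to 4 and 12212, 9149, 931 and 5929 ppm in cell libraries 1 to 4. Both libraries numbered 1 were the highest of their group and both numbered 3 the lowest, and the groups overlapped with a rescaled log2 difference of 0.02 ± 0.87 (SE) and limma's adjusted p = 0.994.

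RpS26 lies at the mRNA exit channel. It was listed at 36452, 21198, 4404 and 19032 ppm in exosome libraries 1 to 4 and 20609, 22943, 6581 and 15150.1 ppm in cell libraries 1 to 4. It ranked 1, 10, 43 and 10 of all tested genes in the exosome and 2, 8, 36 and 17 in the cell libraries. The groups overlapped, and the libraries numbered 3 were lowest in both.

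RpS27A is made as a fusion of ubiquitin with the ribosomal protein. It had 9995, 10344, 3725 and 12781 ppm in exosome libraries 1 to 4 and 5205, 6969, 5109 and 9431 ppm in cell libraries 1 to 4. Exosome library 4 was highest and exosome library 3 lowest of all, so the groups overlapped, and its rescaled log2 difference of 0.37 ± 0.50 (SE) had limma's adjusted p = 0.733.

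RpS6, the phosphorylation target of S6 kinase and a growth regulator of fly blood tissue, had 5017, 2811 and 5045 ppm in exosome libraries 2 to 4 and 7877, 8162, 3182 and 6227 ppm in cell libraries 1 to 4. The libraries numbered 3 were lowest in both groups. Without cell library 3, and with the zero of exosome library 1 counted, its rank was worse in every exosome than in every cell library, and the same held for RpS5a and RpS19a, beside 2.78% of all tested genes that were then lower in exosomes. With all libraries the groups overlapped, and its rescaled log2 difference of -0.53 ± 0.52 (SE) was the lowest of the 32 members, with limma's adjusted p = 0.651.

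RpS21, encoded by oho23B and known in flies for overgrowth of blood tissue in mutants, had 22883, 11226, 5852 and 7754 ppm in exosome libraries 1 to 4 and 11876, 13061, 11133 and 8495 ppm in cell libraries 1 to 4. Exosome library 1 was the highest and exosome library 3 the lowest, so the cell values lay inside the exosome range. For sta, whose protein binds the outer face of the subunit and shares its descent with the laminin receptor precursor, the level was 11202, 5877 and 13361 ppm in exosome libraries 2 to 4 and 12891, 15618, 5343 and 13284 ppm in cell libraries 1 to 4. The libraries numbered 3 were again the lowest of each group, and the groups overlapped.

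Over the cell libraries, the members with the best mean rank included RpS19a (13.0), RpS26 (15.8), RpS7 (22.5) and sta (25.3). RpS7 had 12732, 4242 and 14828 ppm in exosome libraries 2 to 4 and 16947, 14579, 5696 and 13335 ppm in cell libraries 1 to 4. The libraries numbered 3 were lowest in both groups, which overlapped. The cell mean of RpS19a was 18283 ± 7852 ppm and that of RpS26 16321 ± 7268 ppm (SD, n = 4), and they did not differ beyond their spread.

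At the other end stood RpS27 (mean cell rank 91.3), RpS3A (106.8), RpS14b (114.5), RpS14a (119.8) and, far below, RpS19b (4132). RpS27, a zinc-finger protein of the subunit, had 4946, 1692 and 4632 ppm in exosome libraries 2 to 4 and 3219, 5058, 2824 and 4081 ppm in cell libraries 1 to 4. RpS3A, the only member on chromosome 4, had 3623, 1151 and 5316 ppm in exosome libraries 2 to 4 and 4358, 2941, 1620.1 and 3915 ppm in cell libraries 1 to 4. The exosome and cell values of both genes overlapped, and their cell means of 3796 ± 991 and 3209 ± 1213 ppm (SD, n = 4) did not differ beyond their spread.

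**Figure D3:**
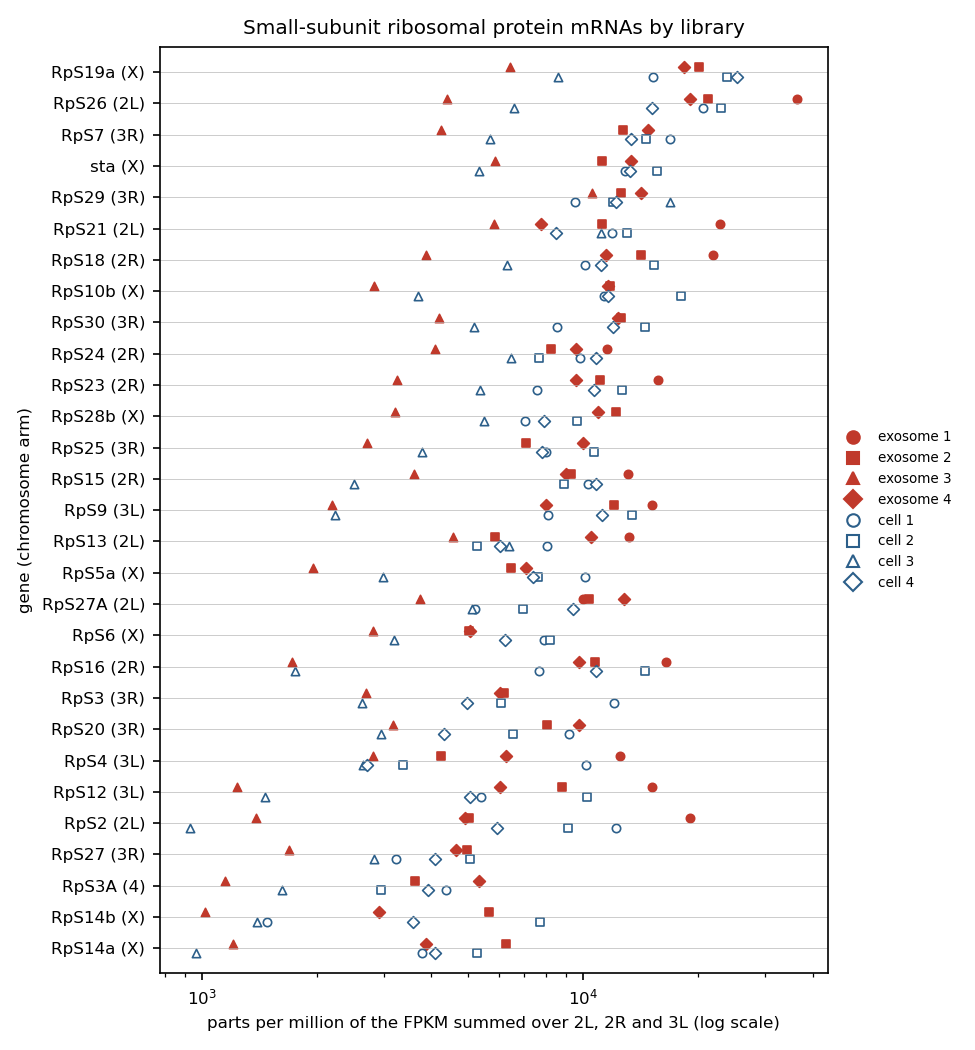
Level of 29 members in ppm of the FPKM summed over 2L, 2R and 3L (x axis, log scale), 1 row per gene ordered by mean rank in the cell libraries, filled points for exosome and open points for cell libraries, shape by library number. Filled and open points interleave in the rows, and exosome library 3 is the lowest exosome value in all 29 rows.

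In the fit with the zeros of exosome library 1 used, the members with the highest differences all lay on 2L, 2R and 3L, and none was called. The zeros lower every member on X, 3R and 4 in that fit, so this order does not rank the arms fairly. On the common scale RpS20 on 3R (0.26) stood above RpS15 on 2R (0.17). RpS4, an rRNA-binding protein of the subunit body, had 12472, 4235, 2809.9 and 6264 ppm in exosome libraries 1 to 4 and 10184.5, 3372, 2646 and 2707 ppm in cell libraries 1 to 4. The libraries numbered 1 stood apart from the rest of their group, and cell library 1 overlapped the exosome range. Without cell library 1, or without both libraries numbered 1, the rank of RpS4 was better in every remaining exosome than in every remaining cell library, beside 6.95% and 8.28% of all tested genes that were then higher in exosomes. Its rescaled log2 difference was 0.48 ± 0.59 (SE) with limma's adjusted p = 0.706.

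RpS12, known in flies for its part in competition between cells that differ in ribosomal gene dose, had 15158, 8800.4, 1235 and 6058 ppm in exosome libraries 1 to 4 and 5405, 10213, 1465 and 5048 ppm in cell libraries 1 to 4. RpS13, the product of a Minute locus, had 13157, 5868, 4548 and 10478 ppm in exosome libraries 1 to 4 and 8049, 5272, 6381 and 6058 ppm in cell libraries 1 to 4. RpS15, which lies near the decoding site, had 13096, 9315, 3609 and 9041 ppm in exosome libraries 1 to 4 and 10286, 8885, 2500.4 and 10809 ppm in cell libraries 1 to 4. In each of these 3 genes exosome library 1 was the highest and exosome library 3 the lowest exosome value, and the groups overlapped. Their rescaled log2 differences were 0.32 ± 0.77, 0.29 ± 0.47 and 0.17 ± 0.59 (SE), with limma's adjusted p between 0.783 and 0.909.

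With those zeros used, the members with the lowest fitted differences included RpS19a, RpS7, RpS10b and RpS5a, all on X or 3R. On the common scale RpS6 (-0.53) lay below these 4. RpS10b, the main copy of the ribosomal protein S10 gene, had 11793, 2834 and 11639 ppm in exosome libraries 2 to 4 and 11376, 18089, 3698 and 11605 ppm in cell libraries 1 to 4. The libraries numbered 3 were lowest in both groups, and the groups overlapped. With absent arms missing and the common scale, the log2 differences of these 4 genes lay between -0.52 (RpS5a) and -0.33 (RpS7 and RpS19a), with limma's adjusted p between 0.699 and 0.819. Other tested members, RpS9, RpS16, RpS18, RpS20, RpS23, RpS24, RpS25, RpS29 and RpS30, had rescaled log2 differences from -0.30 (RpS25) to 0.26 (RpS20).

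In 4 of the 5 paralog pairs nearly all FPKM came from 1 copy in every library with a value, and in the remaining pair RpS14a and RpS14b were at like levels. The share of the second copy passed the test in none of the 4 pairs tested, but 1 pair alone could not have passed. All 5 pairs lie on X and 3R, so exosome library 1 gave no share. Each comparison was 3 against 4 libraries in a two-sided exact permutation test over 35 splits, whose smallest possible p is 0.0286 without ties. In the RpS10a pair, shares tied at 0 made that smallest p larger. Adjustment was over the 4 pairs with any share to test, and a single pair at 0.0286 would stay above 0.05 after it. No conclusion is drawn from the lack of a pair that passed.

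RpS14a and RpS14b are direct neighbours on X in the Release 6 order and encode near-identical copies of the platform protein S14, so the split of fragments between them by the authors' quantification is uncertain. RpS14a had 6283, 1204 and 3881 ppm in exosome libraries 2 to 4 and 3769.7, 5256, 966 and 4075 ppm in cell libraries 1 to 4. RpS14b had 5662, 1017 and 2916 ppm in exosome libraries 2 to 4 and 1477, 7696, 1398 and 3572 ppm in cell libraries 1 to 4. RpS14a made up 52.6%, 54.2% and 57.1% of the pair in exosome libraries 2 to 4 and 71.9%, 40.6%, 40.9% and 53.3% in cell libraries 1 to 4. The exosome shares lay inside the cell range, with means of 54.6% ± 2.28 (SD, n = 3) and 51.6% ± 14.7 (SD, n = 4), a difference of 2.995 percentage points and an exact permutation p = 0.943 (adjusted 0.943).

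RpS19a, whose human counterpart is mutated in Diamond-Blackfan anaemia, carried nearly all of its pair, at 20095, 6435 and 18424 ppm in exosome libraries 2 to 4 and 15276, 23888, 8583 and 25383 ppm in cell libraries 1 to 4. RpS19b, a copy known from the germline, was at 0 in exosome libraries 3 and 4, and its share of the pair was 1.80% in exosome library 2 and 0.371%, 0.0483%, 0.388% and 0.0564% in cell libraries 1 to 4. Exosome library 2 was thus the highest and the other exosome libraries the lowest, with an exact permutation p = 0.857 (n = 3 and 4, adjusted 0.943). Its FPKM of 65.2 in exosome library 2 corresponded to about 3.01 fragments, and those of cell libraries 2 to 4 to about 6.79, 2.04 and 1.22 fragments.

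RpS5a, a protein of the mRNA exit region, had 6467, 1957 and 7101 ppm in exosome libraries 2 to 4 and 10092, 7619.8, 2994 and 7372 ppm in cell libraries 1 to 4. RpS5b, the copy known from the ovary, made up 0.0578% of the pair in exosome library 4, 0.0283% and 0.0146% in cell libraries 1 and 2, and was at 0 in the others. About 1.16 fragments in exosome library 4 and 1.06 in cell library 2 stood behind these values, and the exact permutation p was 0.886 (n = 3 and 4, adjusted 0.943).

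RpS10a, known from the testis, was at 0 in exosome libraries 2 to 4 and made up 0.00734%, 0.0515%, 0 and 0% of its pair in cell libraries 1 to 4, with an exact permutation p = 0.714 (n = 3 and 4, adjusted 0.943). The value of cell library 2 rested on about 4.75 fragments. RpS28b, the main copy of the ribosomal protein S28 gene, had 12182, 3200.2 and 10954 ppm in exosome libraries 2 to 4 and 7056, 9661, 5505 and 7877 ppm in cell libraries 1 to 4, while RpS28a was listed at 0 in all 8 libraries, so that pair was not tested. Of 7 germline genes, nanos was at 0 in all 8 libraries and vas was not matched, while aub and AGO3 of the piRNA pathway reached 12.2 and 11.6 FPKM in cell library 2. The highest value was 0.559 FPKM for bam, in cell library 2, and 0.435 for osk, in cell library 1. The gene piwi, also of the piRNA pathway, was above 0 only in exosome library 3, at 2.68 FPKM. Whether germline-type RNA has a part in the low levels of the second copies was not tested.

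**Figure D4:**
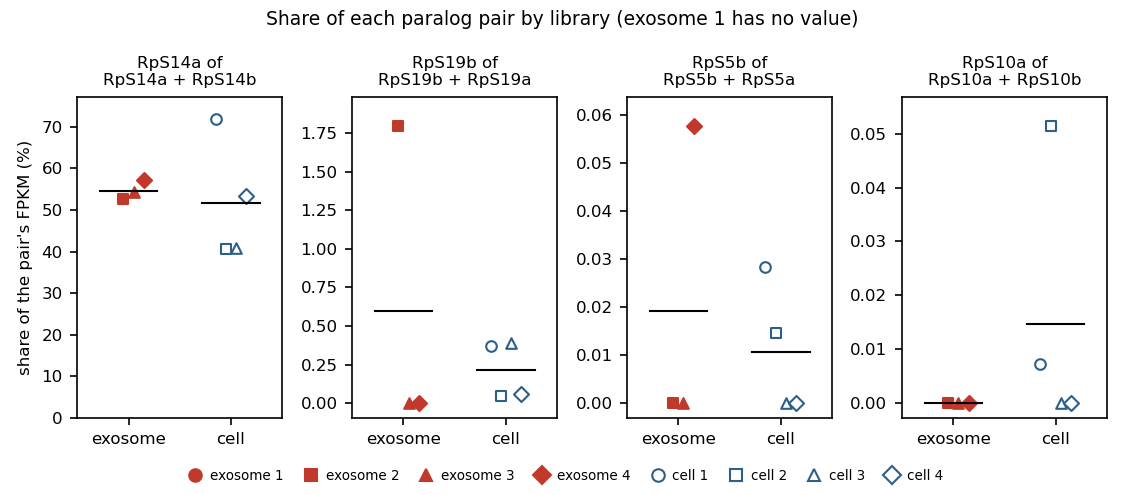
Share of each pair's FPKM held by the first-named copy, in percent (y axis, own scale per panel), in exosome and cell libraries (x axis), 1 point per library with the group mean as a bar. RpS14a lies between 40.6% and 71.9% in all 7 libraries drawn, and the other 3 copies stay at or below 1.80%.

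Although the groups overlapped, the order of the members within a library changed from library to library. Levels were set relative to the median of the 15 members on 2L, 2R and 3L and compared over the members present, 15 for exosome library 1 and 32 otherwise. Between an exosome and a cell library with the same number, the mean absolute log2 difference per member was 0.304, 0.301, 0.319 and 0.334 for numbers 1 to 4, and Spearman's rho was 0.611, 0.875, 0.923 and 0.857. Between libraries with different numbers, the difference was 0.292 to 1.0 with a median of 0.565 over 12 pairs, and rho was 0.096 to 0.883. These are descriptions over members that share a library, its depth and its scaling. By difference, exosome library 1 was closer to cell library 2 (0.292) than to cell library 1, and cell library 4 was closer to exosome library 2 (0.316) than to exosome library 4. By rho, exosome library 1 was nearer to cell library 2 (0.796) than to cell library 1, and exosome library 2 nearer to cell library 4 (0.883) than to cell library 2.

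Between libraries of the same number, a minority of the members moved one way throughout, on X, 3R and 4 over fewer comparisons. On 2L, 2R and 3L, 1 of 15 members, RpS4, had more ppm in the exosome library in all 4 comparisons, beside 1.03% of tested genes there, and 0 had less in all 4, beside 24.6%. On X, 3R and 4, numbers 2 to 4 could be compared, and 2 of 18 members, RpS3 and RpS20, had more in the exosome library each time, beside 6.78% of genes. The exosome library had less each time in 5 of 18 members, RpS5a, RpS6, RpS14b and RpS19a among them. That count is near the share of all tested genes on these arms, 26.6%.

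The libraries numbered 3 shared several members that stood high or low in both. RpS29, a small zinc-binding protein of the subunit head, was 1.5 above the median member on the log2 scale in exosome library 3 and 1.66 in cell library 3, and between -0.05 and 0.65 in the other libraries with a value. In the other direction, RpS2 was at -1.43 and -2.52 in the libraries numbered 3 and between -1.04 and 0.33 elsewhere. RpS12 was at -1.59 and -1.87 against -0.90 to 0.02, and RpS16 at -1.11 and -1.61 against -0.36 to 0.53. These 4 genes were chosen after their values were seen. FPKM was scaled to like numbers of fragments in exosome libraries 3 and 4, about 1940000 and 2030000, and to about 2270000 in cell library 3. Summed FPKM was still 91304 in exosome library 3 and 102736 in cell library 3, against 423606 in exosome library 4. Like depth in this sense did not mean a like summed FPKM.

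**Figure D5:**
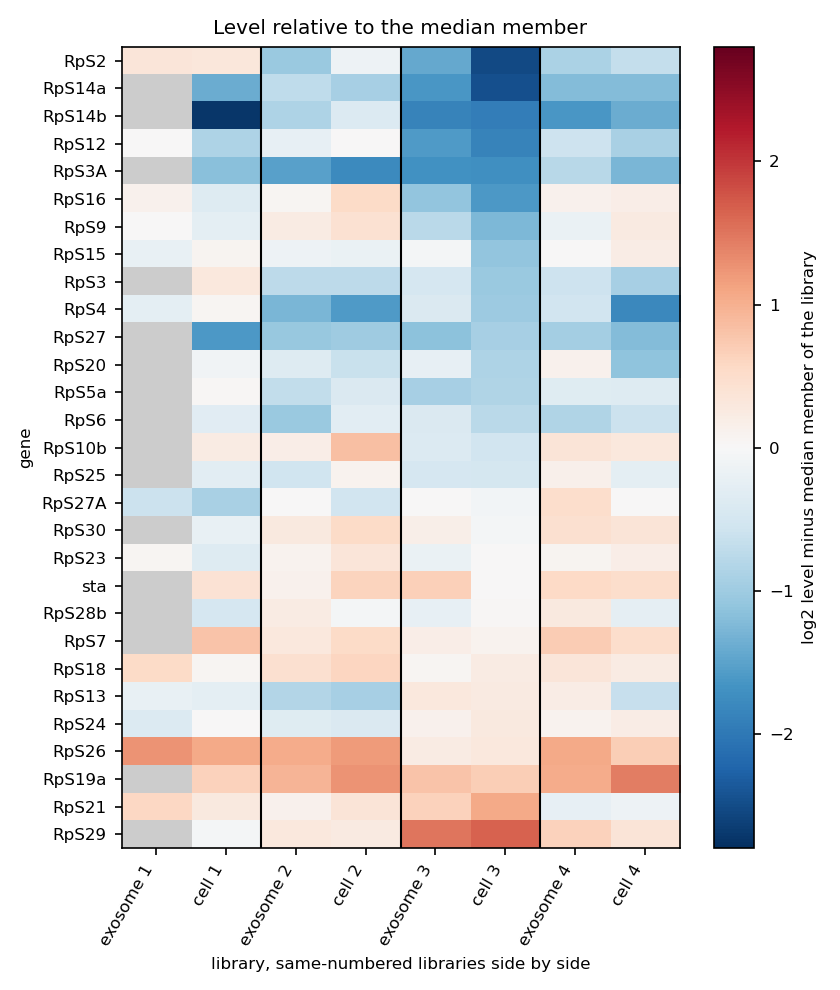
Log2 level of 29 members minus the median member of the library (color), 1 row per gene ordered by cell library 3, 1 column per library with same-numbered exosome and cell libraries side by side, grey where exosome library 1 lacks the arm. Both libraries numbered 3 show RpS29 and RpS21 high and RpS2, RpS12 and RpS16 low.

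The deposited table held 63 transcripts of the members. Of the 19 members with more than 1 transcript, 8 had more than 1 above 0, and in 7 of these the leading transcript differed between libraries, also among the cell libraries alone. RpS4 was assigned to transcript RB with 10568 FPKM in exosome library 1 and 4411 in cell library 1, where RA was at 0, while RA led in the other 6 libraries. RpS13 showed RA in front in both libraries numbered 1, with 7621 and 3486 FPKM, and RA at 0 in the other 6. In both genes the leading transcript was the same in exosome library 1 and cell library 1 and differed from that of the other 6 libraries. The leading transcript did not follow the number in RpS21, with RA ahead in exosome libraries 1 and 2 and cell library 1, or in RpS9, with RD ahead in exosome libraries 1 to 3 and cell libraries 1 and 3.

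The genes whose ranks were most like the members' median rank were large-subunit ribosomal protein genes. Over 8 libraries the 5 nearest were RpL35, RpL7A, RpL17, RpL6 and RpL35A, with a mean absolute rank difference of 14.5 to 19.4, all on X or 3R and at 0 in exosome library 1. Over the 7 libraries without exosome library 1 they were RpL5, RpL26, RpL8, RpL13 and RpL14, with 8.43 to 16.

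Among small-subunit proteins and partners that the naming rule did not take, 3 of 4 were tested and 0 were called in either direction. Rack1, a signalling scaffold on the subunit head, had 8021, 463, 125 and 580 FPKM in exosome libraries 1 to 4 and 3521, 2175, 189 and 92.3 in cell libraries 1 to 4, which overlapped. RpS15Aa on X was at 0 in exosome library 1 and at 2029, 207 and 2463 FPKM in exosome libraries 2 to 4, against 2288, 9441, 266 and 417 in cell libraries 1 to 4. Its copy RpS15Ab on 2R had 617, 37.9, 6.55 and 104 FPKM in the exosome and 414, 198, 15.04 and 17.02 in the cell libraries, so both kinds of library held far more RpS15Aa wherever X was present. RpS28-like was at 0 in all 8 libraries.

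Factors of ribosome assembly, for which 13 of 16 listed symbols were matched and 12 tested, gave 0 called in either direction, with a median log2 difference of -0.50 beside -1.01 over the 5868 genes. Together they summed to an FPKM of 54.7 to 328 in the exosome libraries and 23.97 to 877 in the cell libraries. Fibrillarin (Fib), the rRNA methyltransferase, had a log2 difference of -0.68 ± 1.61 (SE, limma's adjusted p = 0.886). Of 6 genes of growth control, 5 were tested and 0 called in either direction. Thor, the translation repressor downstream of the Tor kinase, was the most abundant of them, at 3623, 624, 172 and 518 FPKM in exosome libraries 1 to 4 and 715, 1019, 797 and 72.9 in cell libraries 1 to 4, and these overlapped. S6k, the kinase of RpS6, had a log2 difference of 0.20 ± 1.58 and Myc, a transcription factor that raises ribosomal gene expression, one of -2.12 ± 1.35 (SE), with limma's adjusted p = 0.968 and 0.708, and Myc, on X, was at 0 in exosome library 1.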

How the data were processed

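Polyadenylated RNA of 4 exosome and 4 cell libraries of S2 cells was analysed. The authors deposited FPKM per transcript, a unit taken from the values and from Cufflinks, which the submitters' processing notes name beside TopHat2, DESeq2 and the build dm3, without versions or roles. The library kit was directional per the labels' protocols, and the use of strand in quantification is not stated in them. The 21081 transcripts were summed to 14012 genes by deposited identifier, and 12914 were matched to Release 6 symbols. The Release 6 annotation also gave the chromosome arms and, from start positions, the order of genes. No column of the gene table was left unused, and the transposon table was not analysed here.

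The 5868 genes that exceeded an FPKM of 1 in 4 or more libraries were fitted on log2(FPKM + 1) with limma 3.58.1 in R 4.3.3, with a trend, no block and Benjamini-Hochberg adjustment at 0.05. The pseudocount understates changes of low genes. The fit was tested on simulated data. Single shares were compared by exact permutation. Depth was read from the steps of low values within a tolerance of 0.15 fragments, and a fragment number speaks of counting error only.

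Values in every library were given for both copies of each pair, sta, RpS2, RpS21, RpS3, RpS6, RpS26, RpS27A, the 5 highest and 5 lowest by cell rank and by log2 difference, apart from some that are not reported by name or drawn here. The members, lists and tests were chosen with earlier results of these data known. Alternatives were pseudocount, filter, scaling, a replicate block, the zeros of exosome library 1 and each library left out.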

Additional observations from a re-analysis of the deposited data

Results flagged for a closer look

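Of 43 groups of 4 libraries examined, 5 had 1 library far from the other 3. The rule would mark about 1 in 20 groups of independent, normally spread values by chance. These groups share the same libraries and hold zeros, so no conclusion is drawn from the count. The ratio of small-subunit to large-subunit FPKM on 2L, 2R and 3L was 0.536 in exosome library 1, against 0.351 to 0.376 in the other exosome libraries. The median percentile rank of the tested members was 42.3 in exosome library 1, whose X, 3R and chromosome 4 members were listed at 0, and 98.8 to 99.4 in the other exosome libraries. In the cell libraries the same median was 98.8 in library 3 and 99.2 to 99.3 in the others. RpS4 stood at 10184.5 ppm in cell library 1 and at 2646 to 3372 ppm in the other cell libraries, and RpS4 fragments were assigned to another transcript in both libraries numbered 1. The RpS10a share of its pair was 0.0515% in cell library 2, from about 4.75 fragments, and at most 0.00734% in the other cell libraries. The causes were not tested.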

How the results depend on the processing

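With limma, 0 members were called under every setting run, while an unadjusted p under 0.05 was reached by 8 members with a pseudocount of 0.1, by 3 without exosome library 2, by 3 without exosome library 4 and by 2 without cell library 4. These stood beside 7.4%, 2.18%, 6.77% and 20.5% of all 5868 genes, and the last setting called 1 gene. The members' median log2 difference was -2.41 as fitted and ranged from -3.55 to 0.01 over the alternatives that kept the 33 members, and was 0.10 for the 15 members of 2L, 2R and 3L alone. The replicate block gave 0 calls and a median of -2.41. In their deviations from the group means, same-numbered exosome and cell libraries correlated at 0.233, 0.191, 0.452 and -0.0676. Over genes of 2L, 2R and 3L on a common scale the values were 0.483, 0.0804, 0.452 and 0.0272. The main fit did not take the numbers as pairs, which the labels do not name, so fits without the block ignore any pairing. Over the 15 members of these arms alone the values were 0.651, 0.804, 0.884 and 0.603, each above the values of libraries of different number, at most 0.598. Whether the numbers mark shared experiments was not tested. The block on the common scale with absent arms missing, added after the data were seen, called 0 members and 52 of all genes, and the members' median was 0.01. In it RpS4 had a log2 difference of 0.48 ± 0.31, RpS19a -0.38 ± 0.30, RpS6 -0.39 ± 0.35 and RpS5a -0.30 ± 0.34 (SE), with limma's adjusted p between 0.473 and 0.995 over the members. The shift of the median of all tested genes was -1.01 as deposited, 0.11 with quantile normalization and -1.19 with each library scaled to the same sum.

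The difference in summed share, for all members over the whole library with the zeros of exosome library 1 used, was 1.57 percentage points and ranged from -1.58 (without exosome library 1) to 4.69 (without exosome library 3). The difference in median percentile was -14.2 and close to 0 without exosome library 1 (-0.00142) or without both libraries numbered 1 (0.0454). The count of members with no overlap was 0 to 3 when 1 library was left out, with 1 higher in exosomes without cell library 1 (beside 6.95% of genes) and 3 lower without cell library 3 (beside 2.78%). It was 1 higher without both libraries numbered 1 (beside 8.28%).

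Of 447 values of 22 members under alternatives, 41 changed sign and 0 were called. Leaving out 1 library moved the log2 difference of RpS12 between -0.49 and 2.08, RpS13 between -0.30 and 1.58, RpS15 between -0.41 and 1.58, RpS2 between -0.96 and 1.67, RpS21 between -0.80 and 1.22, RpS26 between -0.62 and 1.76, RpS27A between -0.05 and 1.79 and RpS4 between -0.26 and 1.83. Without both libraries numbered 1, the sign changed in RpS14a (0.34), RpS19b (0.30), RpS2 (-0.02), RpS21 (-0.25), RpS28b (0.18), RpS3 (0.29), RpS3A (0.26), RpS7 (0.02) and sta (0.06). With quantile normalization it changed in RpS19b (0.20) and RpS2 (-0.02), and with a pseudocount of 10 RpS19b came to 0.00. Scaling over 2L, 2R and 3L changed it in RpS21 (-0.08). Together with the absent arms of exosome library 1 missing it changed it in RpS14a (0.05) and RpS28b (0.03), where the missing arms alone gave -0.29 and -0.31. The block added to both changed it in RpS21 (-0.08), RpS14a (0.17), RpS28b (0.01), RpS3 (0.12) and RpS3A (0.08). Leaving out 1 library moved the exosome minus cell share of RpS14a between -0.692 and 9.73, of RpS19b between -0.216 and 0.683 and of RpS5b between -0.0107 and 0.0182 percentage points. The cause of these changes was not tested.

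Depth was read in 6 of 8 libraries, and exosome library 2, the shallowest of these, listed 51.0% of the tested genes of 2L, 2R and 3L at 0.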
